A study of Homo sapiens with 5 samples.

Results

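EGFR, the receptor of epidermal growth factor, 4 of its ligands and its feedback inhibitor ERRFI1 were followed across 5 RNA-seq libraries of the breast cancer line MDA-MB-231, a human line of the triple-negative type. The 6 genes were taken by symbol (EGFR, AREG, EREG, HBEGF, TGFA and ERRFI1) out of 12497 gene rows listed in any library. All 6 were listed in the si-LY6E-DT and si-NC libraries. In the si-HNRNPC-labelled library, the HNRNPC immunoprecipitate and the input of that RNA immunoprecipitation (RIP) 5 were listed, all but EREG.

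Each group had 1 library and all came from the same line, grown in L15 medium with serum. The si-LY6E-DT library is labelled as cells transfected with a Smart Silencer against the long noncoding RNA LY6E-DT. Another library is labelled as cells transfected with an siRNA against HNRNPC, a ribonucleoprotein of the nucleus with affinity for U-rich stretches of RNA. The si-NC library is the negative control. The HNRNPC immunoprecipitate holds RNA recovered from lysate with an antibody to HNRNPC on magnetic beads, and the RIP input holds RNA of lysed cells. The general treatment text names the silencer and the siRNA in crossed order, and the library labels are followed here. No library of the IgG control named in the protocol was analysed here. With 1 library per group no difference has a replicate check, and no SD or p-value is given. In bulk RNA, fewer expressing cells and less RNA per cell cannot be told apart.

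EGFR is a receptor tyrosine kinase that dimerises when a ligand binds and then signals through RAS and the ERK kinases, PI3K and STAT3. Its ligands are made as membrane-anchored precursors and are released by metalloproteases of the ADAM family. ERRFI1, also called MIG6, is induced by this signalling, binds the kinase domain of EGFR and blocks it. MDA-MB-231 cells are known for EGFR expression without oestrogen receptor, progesterone receptor or amplified ERBB2.

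Values are FPKM, fragments scaled to gene length and library size, and can be set side by side between genes. The sequencing depth is unknown, and FPKM sums over the listed genes ran from 157407 in the immunoprecipitate to 272563 in the RIP input. Mitochondrially encoded mRNAs took 29.8% of that sum in the RIP input and 7.20% to 9.92% in the other libraries. HNRNPC itself was at 40.1 FPKM in si-LY6E-DT, 48.8 in the si-HNRNPC-labelled library, 52.2 in si-NC cells, 58.4 in the immunoprecipitate and 67.4 in the RIP input, so the level of the targeted mRNA goes against the label. LY6E-DT was not analysed here. VIM, the intermediate filament of mesenchymal cells, was at 157 to 538 FPKM, and ESR1, PGR and CDH1, markers of luminal or epithelial cells, had no row in any library, nor had the leukocyte markers PTPRC and CD3E.

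The RNA stretches shown first were chosen because HNRNPC is known to bind runs of U, and they are ordered by the length of the run. EREG, which has no value in the RIP libraries, is left out here. For 1 coding transcript per gene in GENCODE 29 (GRCh38), the 30 bases around the longest run of T in the 3′ UTR are given on the gene's strand as DNA letters, with the run in capitals. The windows lie at chr1:8012252-8012281 (minus strand) for ERRFI1, chr7:55207034-55207063 (plus) for EGFR, chr2:70449627-70449656 (minus) for TGFA, chr5:140333717-140333746 (minus) for HBEGF and chr4:74454913-74454942 (plus) for AREG.
ERRFI1: tggttttgcTTTTTTTTTTTagactgtatt
TGFA: attccagtaaTTTTTTTTTcctcatttcca
EGFR: taggagcccaccTTTTTTcctaatctgtgt
AREG: aggtaaaaagtaTTTTTTcaagttgtaaat
HBEGF: aaataacaactaTTTTTgttgttgttgttt
The run has 11 bases in ERRFI1, 9 in TGFA, 6 in EGFR, 6 in AREG and 5 in HBEGF. These letters describe the annotated transcripts, and no binding position was measured. How common runs of such lengths are over all genes, and whether they bear on recovery, was not tested.

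The receptor gene EGFR (ENSG00000146648.17_3; chromosome 7, 55019021 to 55211628, plus strand, GRCh38), which is protein-coding, was at 31.8 FPKM in si-LY6E-DT, 11.3 in the si-HNRNPC-labelled library, 25.02 in si-NC cells, 31.05 in the immunoprecipitate and 13.1 in the RIP input. Its level was thus high in si-LY6E-DT, the immunoprecipitate and si-NC and low in the remaining pair, and its highest library was 2.81 times its lowest. It stood above 67.2% to 90.6% of the genes listed in each library. EGFR-AS1, annotated as antisense, overlaps EGFR exons on the other strand, and AL034417.4 does so for ERRFI1. Whether counting used strand is not given in the sources used here, so reads of such partners cannot be told apart from the gene's own.

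Among the ligands, HBEGF, the heparin-binding EGF-like growth factor and also the receptor of diphtheria toxin, varied least of those listed in all 5 libraries. HBEGF (ENSG00000113070.7_2; chromosome 5, 140332843 to 140346631, minus strand) was at 22.8 FPKM in si-LY6E-DT, 11.5 in the si-HNRNPC-labelled library, 20.9 in si-NC cells, 6.70 in the immunoprecipitate and 15.1 in the RIP input. The immunoprecipitate had the lowest level, and the highest library was 3.40 times the lowest.

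Transforming growth factor alpha, TGFA (ENSG00000163235.15_3; chromosome 2, 70447280 to 70554193, minus strand), was at 20.2 FPKM in si-LY6E-DT, 1.81 in the si-HNRNPC-labelled library, 15.1 in si-NC cells, 4.41 in the immunoprecipitate and 1.11 in the RIP input. It was therefore high in si-LY6E-DT and si-NC and low in the other libraries, an 18.2-fold span.

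Amphiregulin, AREG (ENSG00000109321.10_2; chromosome 4, 74445134 to 74455009, plus strand), followed the same split with the widest span of the genes listed in all 5 libraries, 70.0-fold. It was at 21.5 FPKM in si-LY6E-DT, 1.11 in the si-HNRNPC-labelled library, 12.5 in si-NC cells, 0.307 in the immunoprecipitate and 1.56 in the RIP input. The AREG row is uncertain, because the files also hold a row AREGB (ENSG00000205595.3), a symbol that RefSeq gives as a synonym of AREG and that GENCODE 29 does not pair with a gene of its own. AREGB was at 21.7 FPKM in si-LY6E-DT, 0.907 in the si-HNRNPC-labelled library, 12.3 in si-NC and 1.71 in the RIP input, and it was listed at 0 in the immunoprecipitate. The ratio of AREGB to AREG was 1.01 in si-LY6E-DT, 0.815 in the si-HNRNPC-labelled library, 0.985 in si-NC and 1.10 in the RIP input. Read together, the rows summed to 43.2 FPKM in si-LY6E-DT, 2.02 in the si-HNRNPC-labelled library, 24.8 in si-NC cells, 0.307 in the immunoprecipitate and 3.27 in the RIP input. How reads were divided between the rows was not tested.

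Epiregulin, EREG (ENSG00000124882.3_2; chromosome 4, 74365143 to 74388751, plus strand), is the neighbour of AREG, and 56383 bases separate the end of EREG from the start of AREG. EREG reached 1.12 FPKM in the si-LY6E-DT library, against 0.454 in si-NC, the lowest of the 6 genes in either library. The tables of the other libraries give no EREG row, and how rows were chosen for each table is not given in the sources used here.

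The inhibitor ERRFI1 (ENSG00000116285.12_2; chromosome 1, 8004404 to 8026308, minus strand) had the highest level of the 6 genes in each library. It was at 78.6 FPKM in si-LY6E-DT, 53.8 in the si-HNRNPC-labelled library, 71.9 in si-NC cells, 265 in the immunoprecipitate and 109.5 in the RIP input. The immunoprecipitate stood above the other libraries, and 99.7% of the genes listed there had a lower level.

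**Figure D1:**
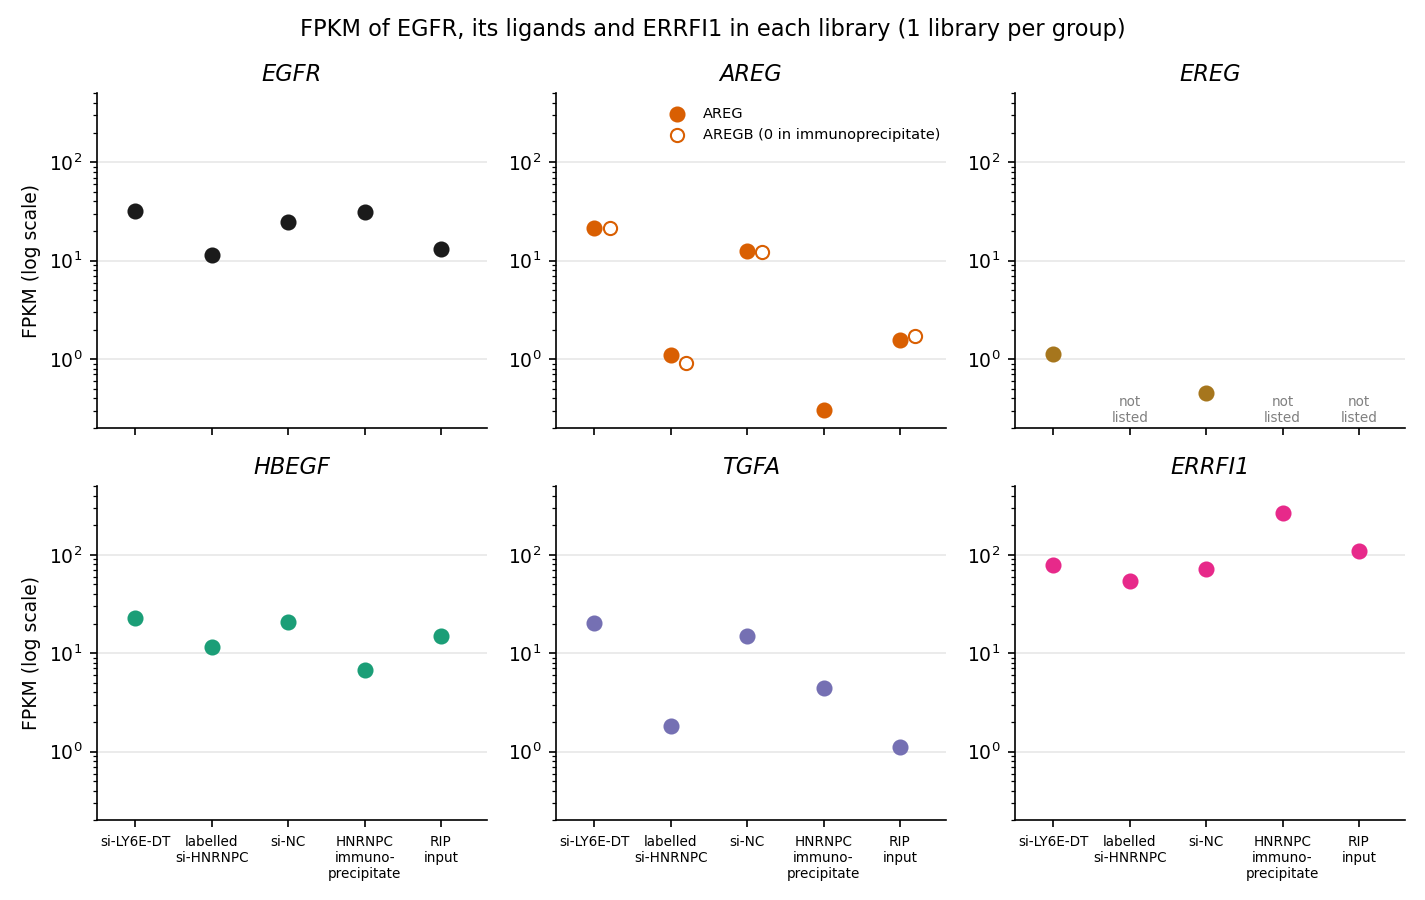
FPKM on a log scale of EGFR, AREG, EREG, HBEGF, TGFA and ERRFI1 in each of the 5 libraries, 1 point per library with no replicates; open circles in the AREG panel are the AREGB row. AREG and TGFA sit above 12 FPKM in si-LY6E-DT and si-NC and under 5 FPKM in the other 3 libraries, while ERRFI1 is highest in the immunoprecipitate (265 FPKM).

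Ratios within a library do not depend on its scaling. Of the summed FPKM of HBEGF, AREG and TGFA, HBEGF made up 35.3% in si-LY6E-DT, 79.8% in the si-HNRNPC-labelled library, 43.0% in si-NC cells, 58.7% in the immunoprecipitate and 85.0% in the RIP input. HBEGF was the most abundant ligand row in each library, and AREG followed closely in si-LY6E-DT, at 33.3% of the sum. TGFA made up 31.4% of that sum in si-LY6E-DT, 12.5% in the si-HNRNPC-labelled library, 31.2% in si-NC cells, 38.6% in the immunoprecipitate and 6.26% in the RIP input. With the AREGB row added, AREG and AREGB together were 50.1% of the ligand sum of si-LY6E-DT and 40.8% of that of si-NC cells, above HBEGF at 26.4% and 34.3% in the same libraries. The order of AREG and HBEGF in those libraries thus depends on how AREGB is read. ERRFI1 exceeded EGFR 2.47-fold in si-LY6E-DT, 4.75-fold in the si-HNRNPC-labelled library, 2.87-fold in si-NC cells, 8.52-fold in the immunoprecipitate and 8.35-fold in the RIP input. The ratio of inhibitor to receptor mRNA was therefore nearly the same in the immunoprecipitate and its input, although each mRNA alone differed between them.

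**Figure D2:**
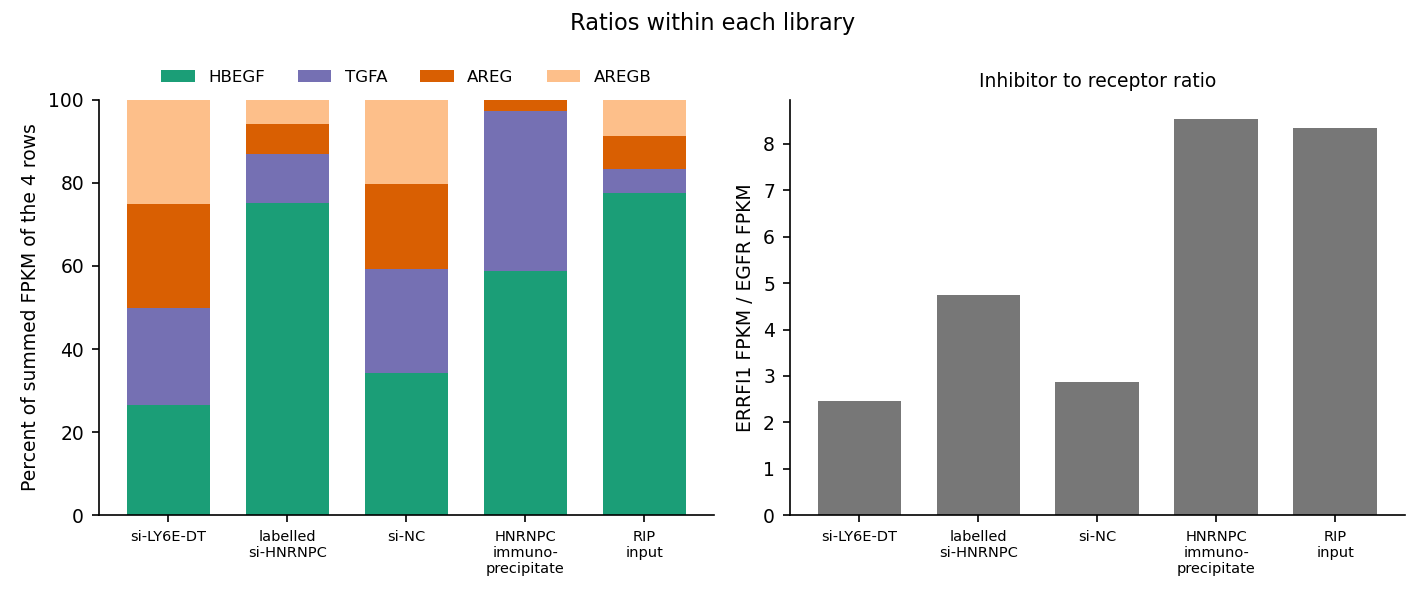
Left, the share in percent of HBEGF, TGFA, AREG and AREGB in the summed FPKM of these 4 rows, 1 stacked bar per library; right, ERRFI1 FPKM divided by EGFR FPKM in the same libraries. HBEGF takes 75.1% in the si-HNRNPC-labelled library and 77.5% in the RIP input, and its share is lower for si-LY6E-DT (26.4%) and si-NC (34.3%), and the ERRFI1 to EGFR ratio is 8.52 in the immunoprecipitate and 8.35 in the RIP input.

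The first comparison asks what changed when LY6E-DT was targeted. A change is log2((FPKM + 1)/(control FPKM + 1)) for genes that both tables list and whose mean is at least 1 FPKM, and a gene is said to have risen or fallen when the change reached 2-fold on that scale, a rule of size and not a test. By this rule none of the 5 genes that passed the filter rose or fell in si-LY6E-DT against si-NC, where 1.66% of 10473 genes rose and 0.888% fell. All had higher values in si-LY6E-DT, with log2 changes of 0.74 for AREG, 0.40 for TGFA, 0.34 for EGFR, 0.13 for ERRFI1 and 0.12 for HBEGF. The median of these changes was 0.34, against 0.04 over all genes tested. AREG, at 21.5 against 12.5 FPKM, was the farthest from 0, and 5.55% of genes changed at least as much. For ERRFI1 and HBEGF 67.5% and 68.7% of genes changed at least as much. EREG, with 1.12 FPKM in si-LY6E-DT against 0.454 in si-NC (log2 0.55), did not pass the filter.

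The second comparison sets the si-HNRNPC-labelled library against si-NC. EGFR, AREG and TGFA fell, HBEGF and ERRFI1 had lower values short of 2-fold, and EREG could not be compared. AREG fell to 1.11 FPKM, against 12.5 in si-NC cells, and 0.771% of genes had a change at least as large as its log2 change of −2.68. TGFA fell to 1.81 FPKM, against 15.1 in si-NC cells, and 0.976% of genes matched or passed its log2 change of −2.52. Over the alternatives the change ran from −3.38 to −1.52 for AREG and from −3.00 to −1.56 for TGFA, the smallest with a pseudocount of 5. The changes reported lay outside the range from the 5th to the 95th percentile of all genes, −1.28 to 1.46. EGFR fell to 11.3 FPKM, against 25.02 in si-NC cells, with 18.7% of genes at or past its log2 change of −1.08, which became −0.88, short of 2-fold, with a pseudocount of 5. HBEGF was at 11.5 against 20.9 FPKM (log2 −0.81), and ERRFI1 was at 53.8 against 71.9 FPKM (log2 −0.41). Of the 5 genes that passed the filter 3 fell and 0 rose, where 9.44% of 10247 genes fell and 12.4% rose. Their median change was −1.08, against 0.04 over all genes, and rescaling each library on the genes left after removing mitochondrial and ribosomal protein genes and the 20 most abundant moved the median of all genes to −0.12. With that rescaling the change of EGFR was −1.26.

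The RIP input comes from cells with no knockdown named in their label, and its levels were near those of the si-HNRNPC-labelled library for EGFR and the ligands. EGFR was at 11.3 FPKM in the si-HNRNPC-labelled library, against 13.1 in the RIP input (log2 −0.20). In the same way AREG was at 1.11 against 1.56 FPKM (−0.28), HBEGF at 11.5 against 15.1 (−0.37) and TGFA at 1.81 against 1.11 (0.41). ERRFI1 fell to 53.8 FPKM, against 109.5 in the RIP input, with a log2 change of −1.01 at the edge of the 2-fold rule and −0.96 with a pseudocount of 5. Of the 5 genes that passed the filter 1 fell and 0 rose, where 4.03% of 10185 genes fell and 9.11% rose. The median of the 5 changes was −0.28, against 0.15 over all genes.

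Of the ligands, AREG and TGFA rose in the si-NC library against the RIP input, HBEGF was short of 2-fold and EREG could not be compared. AREG rose to 12.5 FPKM, against 1.56 in the RIP input, a log2 change of 2.40 that 1.93% of genes reached. TGFA rose to 15.1 FPKM, against 1.11 in the RIP input, a log2 change of 2.93 that 0.926% of genes reached. With a pseudocount of 5 these changes were 1.42 for AREG and 1.72 for TGFA. EGFR was at 25.02 against 13.1 FPKM (log2 0.88), HBEGF at 20.9 against 15.1 (0.44) and ERRFI1 at 71.9 against 109.5 (−0.60). Of the 5 genes that passed the filter 2 rose and 0 fell, where 14.2% of 10264 genes rose and 10.4% fell. The comparisons with si-NC share that library and those with the RIP input share the input, so these values are given side by side and not as separate evidence. Some markers moved with the same split of libraries and others did not. Of 5 markers of the line, SNAI2 was higher in si-LY6E-DT and si-NC, ZEB1 was lower there, SPARC was not listed there, and CD44 and VIM did not follow the split once the immunoprecipitate is included. SNAI2, a transcription factor of mesenchymal cells, was at 46.4 FPKM in si-LY6E-DT, 4.73 in the si-HNRNPC-labelled library, 30 in si-NC cells, 4.10 in the immunoprecipitate and 2.34 in the RIP input. ZEB1, another such factor, was at 3.97 FPKM in si-LY6E-DT, 7.20 in the si-HNRNPC-labelled library, 4.84 in si-NC cells, 15.3 in the immunoprecipitate and 7.97 in the RIP input. VIM was at 286 FPKM in si-LY6E-DT, 382 in the si-HNRNPC-labelled library, 243 in si-NC cells, 157 in the immunoprecipitate and 538 in the RIP input. CD68, which macrophages express, was at 7.86 FPKM in si-LY6E-DT, 74.8 in the si-HNRNPC-labelled library, 4.86 in si-NC cells, 17.4 in the immunoprecipitate and 63.3 in the RIP input, and it was the 1 marker listed of 4 leukocyte markers. Of 4 fibroblast markers, COL1A1 and PDGFRB were listed in si-LY6E-DT and si-NC, with a summed level of 3.50 FPKM in si-LY6E-DT, against 2.15 in si-NC cells, and none was listed in the other libraries. SPARC, a matrix protein listed among the markers of the line, was at 37.8 FPKM in the si-HNRNPC-labelled library, 14.2 in the immunoprecipitate and 31.5 in the RIP input, and had no row in si-LY6E-DT or si-NC. The 4 listed of 7 luminal or epithelial markers summed to 60.0 FPKM in si-LY6E-DT, 53.9 in the si-HNRNPC-labelled library, 59.8 in si-NC cells, 5.81 in the immunoprecipitate and 48.0 in the RIP input, lowest in the immunoprecipitate and within a narrow range elsewhere. The part of these markers in the differences of AREG, TGFA and EGFR was not tested.

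**Figure D3:**
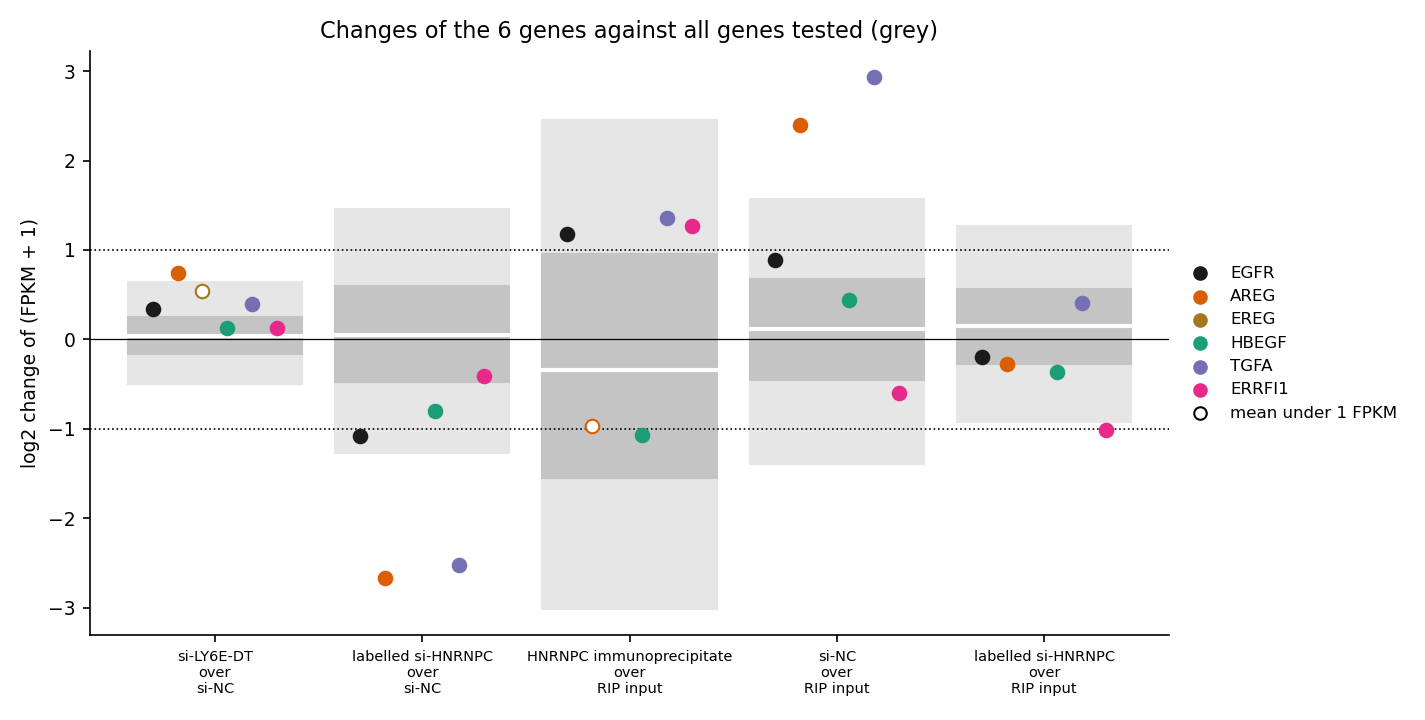
log2 changes of the members (points) in 5 comparisons, each the first-named library over the second, on the log2(FPKM + 1) scale; dark and light grey mark the middle 50% and 90% of all genes tested, the white line their median, dotted lines 2-fold, and open points genes with a mean under 1 FPKM. AREG and TGFA lie beyond the light grey in the si-HNRNPC-labelled library over si-NC (−2.68 and −2.52) and in si-NC over the RIP input (2.40 and 2.93), as do AREG in si-LY6E-DT over si-NC (0.74, just past the edge at 0.64) and ERRFI1 in the si-HNRNPC-labelled library over the RIP input (−1.01, past −0.93), and no member does in the immunoprecipitate over its input.

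To show the sequence before the RefSeq transcription start of the genes with the widest spans, the 250 bases upstream of that start of AREG (chr4:74444886-74445135, plus strand, GRCh38.p14) and of TGFA (chr2:70553827-70554076, minus strand, GRCh38.p14) are given, with matches to the cAMP response element (CRE) in capitals. The TGFA window lies inside the gene as GENCODE 29 places it (70447280 to 70554193), so it is upstream by the RefSeq start only.
AREG: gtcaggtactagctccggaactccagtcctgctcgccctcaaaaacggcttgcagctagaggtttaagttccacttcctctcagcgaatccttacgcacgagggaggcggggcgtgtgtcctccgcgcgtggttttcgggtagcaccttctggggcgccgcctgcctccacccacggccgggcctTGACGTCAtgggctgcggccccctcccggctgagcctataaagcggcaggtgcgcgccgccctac
TGFA: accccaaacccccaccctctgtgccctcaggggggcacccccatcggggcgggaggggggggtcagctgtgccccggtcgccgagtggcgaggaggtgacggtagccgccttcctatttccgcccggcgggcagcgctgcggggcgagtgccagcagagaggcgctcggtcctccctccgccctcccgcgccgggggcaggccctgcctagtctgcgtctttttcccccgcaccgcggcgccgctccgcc
The CRE letters TGACGTCA, which read the same on both strands, occurred once upstream of AREG, starting 65 bases before the transcription start, and in 1.65% of 35116 RefSeq promoters of the same length. They were not found upstream of the other 5 genes. The AP-1 letters TGANTCA, searched on both strands and not overlapping a CRE match here, were in none of the 6 windows and in 6.57% of all promoters. The TATA box letters TATAAA, searched on both strands, were found upstream of the neighbours AREG and EREG, starting 29 and 32 bases before their transcription starts, in none of the other 4 windows, and in 10.7% of all promoters. Other forms of the TATA box were not searched, and the ERRFI1 window holds the letters TATATATA. The letters GGGCGG of the GC box, on either strand, were found in all windows but that of EREG and in 42.6% of all promoters. Upstream GC content was 58.0% for EREG, 65.2% for AREG and 73.6% to 76.4% for the other 4 genes. A match describes the letters only, and no factor was measured at these promoters.

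The third comparison asks which mRNAs were recovered with HNRNPC. EGFR, TGFA and ERRFI1 were at least 2-fold higher in the immunoprecipitate than in the RIP input, and HBEGF was at least 2-fold lower. ERRFI1 was at 265 FPKM in the immunoprecipitate, against 109.5 in the RIP input (log2 1.26). TGFA was at 4.41 FPKM in the immunoprecipitate, against 1.11 in the RIP input (log2 1.36). EGFR was at 31.05 FPKM in the immunoprecipitate, against 13.1 in the RIP input (log2 1.18). HBEGF was at 6.70 FPKM in the immunoprecipitate, against 15.1 in the RIP input (log2 −1.07). AREG was at 0.307 FPKM in the immunoprecipitate, against 1.56 in the RIP input (log2 −0.97), and did not pass the filter, while the sum of AREG and AREGB, an alternative chosen after seeing the data, changed by −1.71. EREG was listed in neither table. Without an IgG library, recovery by the antibody and by the beads alone cannot be told apart.

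Changes of this size were common in that comparison. Of 10284 genes, 24.2% were at least 2-fold higher in the immunoprecipitate and 36.9% lower, beside 3 members higher and 1 lower of the 4 that passed the filter. From 46.8% of genes for TGFA to 58.5% for HBEGF changed at least as much as the member did. The median change was 1.22 over the 4 members and −0.34 over all genes, and the same rescaling moved the median of all genes to −0.17. The depletion of HBEGF was short of 2-fold after centring on the median (log2 −0.72), quantile normalization (−0.76), that rescaling (−0.88) or a pseudocount of 5 (−0.78). With a pseudocount of 5, EGFR (0.99) and TGFA (0.62) were also short of 2-fold, while ERRFI1 (1.24) was not, and quantile normalization gave ERRFI1 2.002. Against the cell libraries, which the labels do not give as its control, the immunoprecipitate held ERRFI1 at 265 FPKM beside 53.8 to 78.6, and EGFR at 31.05 FPKM beside 11.3 to 31.8.

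The annotated transcripts of the members differ in their runs of T. Runs of 5 or more T numbered 17 in the 3′ UTR of TGFA, which has 3579 bases, 15 in that of EGFR with 6011 bases, 5 in that of ERRFI1 with 1491 bases, 4 in that of AREG with 269 bases and 2 in that of HBEGF with 1456 bases. EREG, with no value in the RIP tables, had 30 runs in 3943 bases and the longest run of the 6 genes, 12 bases. TGFA and EGFR thus had more runs than 86.4% and 83.8% of the genes compared, ERRFI1 more than 54.3%, AREG more than 49.2% and HBEGF more than 32.6%. ERRFI1 (log2 1.26) had fewer runs than EGFR (1.18), but with 1 library per group the order of these close changes is not known. HBEGF and ERRFI1, with 3′ UTRs of 1456 and 1491 bases, had log2 changes of −1.07 and 1.26. Per kilobase of 3′ UTR the order of the members by runs was another one, with 14.9 runs for AREG, 4.75 for TGFA, 3.35 for ERRFI1, 2.50 for EGFR and 1.37 for HBEGF. Over 10219 genes with a transcript, the median log2 change in the immunoprecipitate was −1.76 in the 2555 with the fewest runs and 1.35 in the 2555 with the most. It was also −1.65 in the 2555 with the shortest 3′ UTRs and 1.15 in the 2555 with the longest, and 0.99 in the 2555 with the lowest transcript GC content and −1.54 in the 2555 with the highest. By runs per kilobase the median was −1.54 in the 2428 genes with the lowest density, −0.35 and 0.59 in the next groups and 0.57 in the 2428 with the highest, so it did not go on increasing in the upper groups. Transcript GC content was 43.4% for ERRFI1, 45.3% for AREG, 45.9% for TGFA, 47.5% for EGFR and 50.9% for HBEGF. The number of runs, the length and the GC content vary together across genes, and the part of each in the members' values was not tested.

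Genes with the most similar pattern were taken as the 3 with the smallest root mean square distance between centred log2(FPKM + 1) profiles over the 5 libraries, among 6571 genes with a mean of at least 5 FPKM. For EGFR these were TIA1 (distance 0.07), CD44 (0.11) and RALGAPB (0.11). CD44, a receptor of hyaluronan, was at 44.1 FPKM in si-LY6E-DT, 17.1 in the si-HNRNPC-labelled library, 35.9 in si-NC cells, 53.5 in the immunoprecipitate and 21.2 in the RIP input. For AREG they were AREGB (0.17), the keratin KRT81 (0.18) and the basement membrane collagen COL4A1 (0.18), and for TGFA LIMCH1 (0.26), the collagen COL12A1 (0.29) and AFAP1 (0.32). For HBEGF they were C6orf132 (0.04), ZC3H7A (0.07) and UBAP2L (0.09), and for ERRFI1 VAMP4 (0.04), TRAPPC6B (0.09) and MAP4K5 (0.10). Between members the distance ran from 0.73 for EGFR and ERRFI1 to 2.11 for AREG and ERRFI1. The similar genes were picked as the nearest of 6571, so their smaller distances do not show whether the members vary together. EREG, listed in 2 libraries, has no such profile.

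Other genes of the pathway were taken from 5 lists. Of 10 symbols for the other ERBB receptors and EGF family ligands, ERBB2, ERBB3 and the neuregulin NRG1 had rows. ERBB2, the co-receptor of EGFR, was at 8.61 FPKM in si-LY6E-DT, 5.49 in the si-HNRNPC-labelled library, 7.69 in si-NC cells, 1.77 in the immunoprecipitate and 5.89 in the RIP input. It was thus below EGFR in each library, and it was depleted in the immunoprecipitate (log2 −1.31) where EGFR was higher. NRG1, a ligand of ERBB3 and ERBB4, was at 3.94 FPKM in the immunoprecipitate, against 0.931 in the RIP input (log2 1.36).

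Among genes of ligand shedding, ADAM17, the main protease that releases AREG, TGFA and HBEGF, was at 16.1 FPKM in si-LY6E-DT, 12.6 in the si-HNRNPC-labelled library, 17.4 in si-NC cells, 31.4 in the immunoprecipitate and 18.4 in the RIP input, with no 2-fold difference in these comparisons; it is named outside the rule for named genes and was chosen after its values were seen. In the si-HNRNPC-labelled library against si-NC 3 of 10 measured genes of the list rose and 3 fell, with a median log2 change of −0.43. Of all genes 12.4% rose and 9.44% fell there. The proteases ADAM9 (log2 −2.45), ADAM19 (−1.76) and ADAM10 (−1.33) fell, while the protease ADAM15 (1.01), the protease inhibitor TIMP3 (1.60) and BSG (1.24) rose; ADAM15 and BSG lie outside the rule for named genes here and were chosen after their values were seen. In the immunoprecipitate ADAM9 (log2 3.37) and ADAM10 (1.92) were higher and ADAM15 (−2.56) and RHBDF1 (−1.86) lower. ADAM9 was also higher in si-NC than in the RIP input (log2 3.68), as was ADAM19 (1.52), while TIMP3 (−2.15) and BSG (−1.59) were lower.

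Of the adaptors and transducers downstream of EGFR, 3 of 34 rose and 6 fell in the si-HNRNPC-labelled library against si-NC (median −0.10). The shares of all genes were 12.4% risen and 9.44% fallen. RASA1, a GTPase-activating protein of RAS, fell to 3.41 FPKM, against 20.1 in si-NC cells, and AKT1 and the exchange factor SOS1 also fell (log2 −1.39 and −1.38). MAPK3, which encodes ERK1, rose to 17.6 FPKM, against 3.73 in si-NC. In the immunoprecipitate 15 of 35 were higher and 7 lower than in the RIP input (median 0.59), beside 24.2% and 36.9% of all genes. HRAS was at 2.14 FPKM in the immunoprecipitate, against 28.4 in the RIP input (log2 −3.23). MAPK3 (−3.01) and the PI3K regulatory subunit PIK3R2 (−3.56) were lower there. In si-NC against the RIP input 6 of 34 rose and 3 fell, beside 14.2% and 10.4% of all genes. Among the 6 and the 3 were VAV2 (2.41), RASA1 (2.07), MAPK3 (−2.11) and JAK1 (1.93).

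Of the inhibitors and the genes of endocytosis and ubiquitination, 4 of 27 rose and 4 fell in the si-HNRNPC-labelled library against si-NC (median −0.22). The shares of all genes were 12.4% risen and 9.44% fallen. The late endosome GTPase RAB7A (1.94), the endosomal sorting protein STAM (1.71) and the signalling inhibitor SOCS3 (1.69) rose, and the adaptor CD2AP fell (−1.50). In the immunoprecipitate 12 of 28 were higher and 5 lower (median 0.86), beside 24.2% and 36.9% of all genes. The caveolar protein CAV1 was at 228 FPKM there, against 8.12 in the RIP input (log2 4.65), SOCS5 (2.76) and CD2AP (2.58) were also higher, and the clathrin adaptor subunit AP2M1 (−3.12) was lower. In si-NC against the RIP input 8 of 27 rose and 2 fell, beside 14.2% and 10.4% of all genes. CAV1 (3.49), the clathrin heavy chain CLTC (2.78), CD2AP (2.25) and RAB7A (−1.50) were farthest from 0. In si-LY6E-DT 1 of 28 changed 2-fold, SOCS4, which fell to 2.71 FPKM, against 7.66 in si-NC. Of all genes 1.66% rose and 0.888% fell there.

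Transcripts known to be induced by EGFR and ERK signalling did not move as 1 group. In the si-HNRNPC-labelled library against si-NC, where EGFR, AREG and TGFA fell, 6 of 22 rose and 3 fell (median 0.40). The shares of all genes were 12.4% risen and 9.44% fallen. The collagenase MMP1 (5.62) and the ERK phosphatases DUSP4 (3.15) and DUSP5 (2.82) were among those that rose. In si-NC against the RIP input, where AREG and TGFA rose, 2 of 23 rose and 9 fell (median −0.39). The shares of all genes there were 14.2% and 10.4%. MMP1 (−5.43), DUSP4 (−3.44) and DUSP5 (−3.18) were among the listed transcripts that fell. In si-LY6E-DT 1 of 24 rose, beside 1.66% of all genes. It was the transcription factor EGR1, at 2.58 FPKM, against 0.498 in si-NC (log2 1.25). In the si-HNRNPC-labelled library against the RIP input DUSP6 (−1.80) and EGR1 (−1.68) fell and none rose, beside 4.03% and 9.11% of all genes. In the immunoprecipitate 7 of 23 were higher and 6 lower (median 0.02), beside 24.2% and 36.9% of all genes. Among the 7 and the 6 were SPRED1 (2.90), PHLDA1 (2.52), FOSL1 (−2.84) and IER3 (−3.45).

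For the other lists in the si-HNRNPC-labelled library against the RIP input, the shares past 2-fold are read against 9.11% of all genes that rose and 4.03% that fell, and nothing particular to the lists is read from them. Among 10 genes of shedding ADAM9 rose (1.23). Of 33 adaptors and transducers 3 rose, VAV2 (1.32) and GRB2 (1.10) among them, and AKT1 fell (−1.09). Among 26 inhibitors and endocytosis genes CAV1 (2.28) and CLTC (2.20) rose. In si-LY6E-DT none of 11 genes of shedding and none of 33 adaptors and transducers changed 2-fold. Of all genes 1.66% rose and 0.888% fell there.

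**Figure D4:**
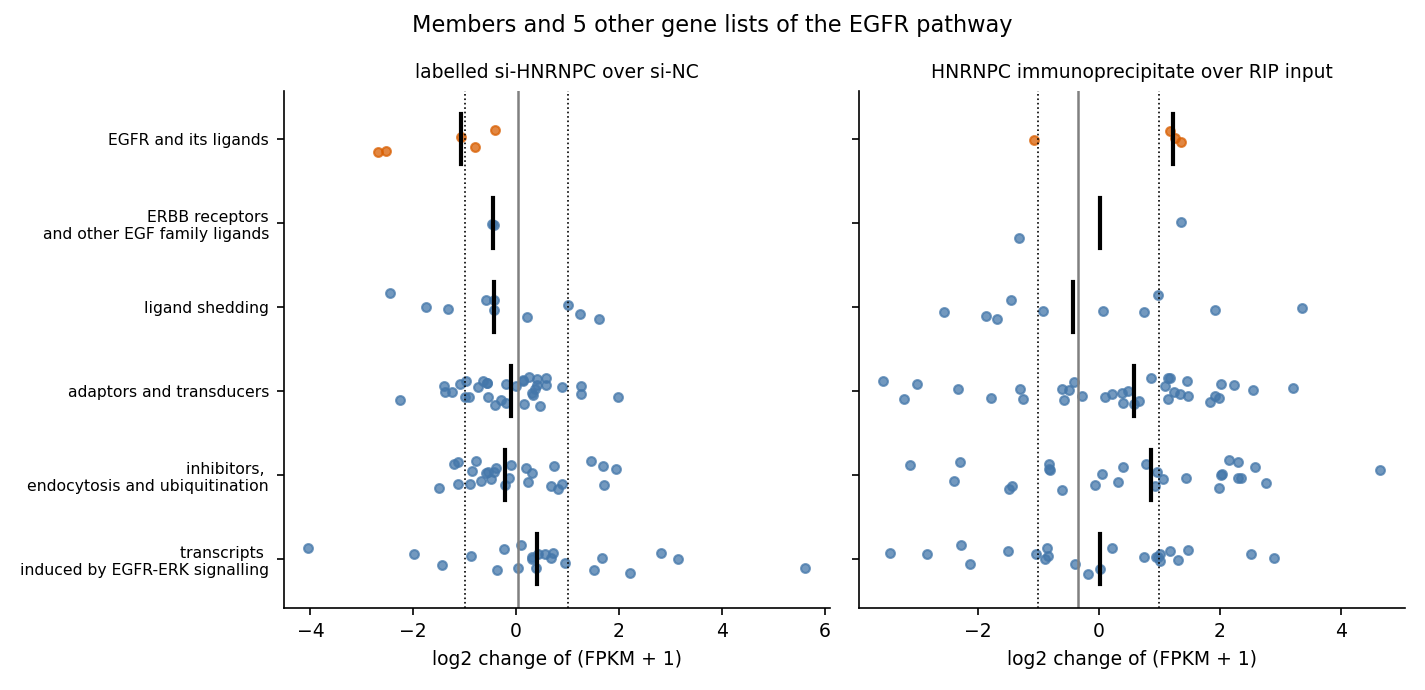
log2 changes of single genes (points) on the log2(FPKM + 1) scale for the members (top row) and 5 other lists of the pathway, in the si-HNRNPC-labelled library over si-NC (left) and in the HNRNPC immunoprecipitate over the RIP input (right); black bars are list medians, the grey line the median of all genes tested, dotted lines 2-fold. On the left the members have a median of −1.08 and induced transcripts 0.40; on the right members lie on both sides of 0, as do the genes of each other list.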

How the data were processed

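RNA of MDA-MB-231 cells was sequenced in 5 libraries, 1 per group. Per the file headers, each deposited table gives the FPKM of every gene it lists. Per the submitters' processing notes, GRCh37 was the build and StringTie 1.3.3, HISAT2 2.1.0, cutadapt 1.17 and FastQC 0.11.7 were the tools, with no roles or settings. An estimate per transcript can divide reads between near-identical rows, as AREG and AREGB, and a few very abundant genes can lower the FPKM of all others. Depth is unknown, so no counting interval is given, and no count test was used.

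Changes were computed with a pseudocount of 1 and a filter of a mean of at least 1 FPKM over all genes listed in both libraries. The calculation was checked on simulated 4-fold changes of genes with at least 5 FPKM in si-NC, with an assumed noise. That check does not cover genes at lower levels or the unknown noise of these single libraries. Each result was recomputed after quantile normalization, rescaling or median centring, with pseudocounts of 0.1 and 5, with a filter of 5 or none, with thresholds of 1.5-fold and 4-fold, and, added after seeing the data, summing AREG and AREGB. Positions and transcripts come from GENCODE 29 (GRCh38), promoters and their coordinates from RefSeq (GRCh38.p14), with all 6 genes matched, and no coordinates were converted. The members and lists were chosen with earlier results of these data known. Named genes are the 6 members, HNRNPC, up to 4 genes per list and comparison with the largest changes past 2-fold, and the 3 most similar genes per member; exceptions are marked, and a few genes that meet this rule are not reported here. The tools were pandas 2.3.3 and numpy 2.4.6 under Python 3.11.15, with matplotlib 3.10.9 for plots.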

Additional observations from a re-analysis of the deposited data

How the results depend on the processing

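Of 173 recomputed log2 changes of single members, none had the opposite sign, 164 stayed within 0.585 of the value reported and 9 did not. Part of this was fixed in advance, because another filter selects genes and cannot alter a log2 change. Median centring could not move a value past 0.585 either, as the median farthest from 0 was −0.34, in the immunoprecipitate against its input. These counts are therefore no measure of robustness. The number of members at least 2-fold changed in si-LY6E-DT against si-NC was 0 and became 1 (AREG) with a 1.5-fold threshold. In the immunoprecipitate against its input it was 4 and became 1 with a pseudocount of 5 and 0 with a 4-fold threshold. With the other alternatives it ran from 3, as after quantile normalization, to 5 with AREG and AREGB summed. In si-NC against the RIP input it was 2 and became 4 with a 1.5-fold threshold. In the si-HNRNPC-labelled library against the RIP input it was 1 and became 0 with a pseudocount of 5 or a 4-fold threshold. In that library against si-NC it was 3 and stayed between 2 and 4. A larger pseudocount shrinks changes of low genes by construction. No paired analysis was possible because each group has 1 library. The unknown depth and the single libraries limit these values.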
